A study of Homo sapiens with 12 samples.

Results

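Transcripts of 9 genes whose products restrain mTORC1 were followed in 22Rv1 cells treated for 24 h with an investigational degrader, an autophagy-activating ligand, enzalutamide or vehicle. The genes were chosen by name, with earlier results of these data known, as were the gene lists below. They are 9 of the 18668 genes of the deposited table. The 9 are the sestrins SESN1, SESN2 and SESN3, DDIT4 (REDD1), the 4E-BP genes EIF4EBP1 and EIF4EBP2, the tuberous sclerosis genes TSC1 and TSC2, and AKT1S1 (PRAS40). All 9 were among the 17702 genes that passed the filter on low counts and were tested. SESN2, EIF4EBP1, TSC1 and SESN1 were higher with the degrader than with vehicle. None of the 9 passed that test with the ligand or with enzalutamide. A paired fit, with the replicate number as a block, called DDIT4 lower with enzalutamide. It also called DDIT4, SESN3, TSC2 and AKT1S1 higher with the degrader. That fit called 3.12% of all genes tested with enzalutamide and 41% with the degrader. Degrader and vehicle libraries of replicate 2 did not deviate together, with a correlation of 0.02 across genes. DDIT4 varied more between libraries of a group than any other member and was the member with the widest error.

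22Rv1 is a prostate cancer cell line, castration-resistant, labelled wild type here and grown in RPMI-1640 with 10% serum. The labels name the degrader and the ligand by their kind and a code number, enzalutamide is a drug used against prostate cancer, and each of the 4 groups had 3 biologically independent libraries. Compounds were added a day after seeding, and poly(A) RNA was sequenced from a stranded kit. Doses are not given in the sources used here, so differences between compounds compare the groups as treated and not equal doses.

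mTORC1 is a kinase complex on the lysosome surface that couples amino acids, growth factors and energy to protein synthesis. Sestrins bind the GATOR2 complex and hold back the Rag GTPases that recruit mTORC1, while the TSC1-TSC2 complex turns off RHEB, the GTPase that activates it. DDIT4 acts through the TSC complex, AKT1S1 binds the raptor subunit, and the 4E-BPs, which mTORC1 phosphorylates, block the cap-binding factor EIF4E when unphosphorylated. In many cell types the ATF4 arm of the stress response raises SESN2, DDIT4 and EIF4EBP1 transcripts, p53 raises SESN1 and SESN2, FOXO factors raise SESN1 and SESN3, and hypoxia and glucocorticoids raise DDIT4. Only transcripts were measured here, and mTORC1 activity was not.

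The libraries held 55.5 to 77.2 M counted reads, and every member had at least 699 reads in every library. Values below are CPM, read counts scaled to library size, after scaling by trimmed mean of M values (TMM) unless FPKM is named, and a change is a log2 fold change from edgeR's quasi-likelihood test with p-values adjusted over all genes tested by the Benjamini-Hochberg method. A gene was called higher or lower at an adjusted p under 0.05. All 8 luminal prostate markers were detected, KRT8 at 773.3 ± 68.5 CPM and EPCAM at 82.2 ± 2.41 CPM in vehicle cells (SD, n = 3). Their summed level was 1534.2 to 1643.3 CPM in degrader libraries, 1894.4 to 2076.5 in ligand libraries, 1805.6 to 1943.2 in enzalutamide libraries and 2032.6 to 2213.1 in vehicle libraries, and 6 of the 8 were called lower with the degrader. Of the other cell types, the basal markers KRT5 and KRT14 and the stromal marker COL1A2 are not rows of the table and the basal marker KRT15 stayed at or under 1.67 CPM. The 4 stromal markers listed summed to 29.1 to 35.2 CPM in degrader libraries and 34.8 to 38.7 in vehicle libraries, with none called in this comparison. The 3 neuroendocrine markers summed to 257.7 to 287.8 CPM in degrader libraries and 299.7 to 334.6 in vehicle libraries, and 1 of them, ENO2, was called lower. The part of these shifts in the results was not tested. In bulk RNA a rise in every cell and a larger share of cells with a high level cannot be told apart.

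Promoters are shown for SESN2 and DDIT4, the members whose group means differed most, since both are known ATF4 targets and SESN2 was called against vehicle while DDIT4 was not. Each run covers 250 bases before to 50 after the start of transcription on the plus strand of GRCh38.p14, from RefSeq, at chr1:28259268-28259567 for SESN2 and chr10:72273674-72273973 for DDIT4. Capitals mark the only match found to any motif searched.
SESN2: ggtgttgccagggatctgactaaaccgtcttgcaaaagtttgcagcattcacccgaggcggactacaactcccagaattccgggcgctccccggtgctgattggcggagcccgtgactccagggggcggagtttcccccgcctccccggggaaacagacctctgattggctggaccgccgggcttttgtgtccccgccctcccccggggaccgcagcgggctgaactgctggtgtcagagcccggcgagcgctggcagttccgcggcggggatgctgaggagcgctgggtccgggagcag
DDIT4: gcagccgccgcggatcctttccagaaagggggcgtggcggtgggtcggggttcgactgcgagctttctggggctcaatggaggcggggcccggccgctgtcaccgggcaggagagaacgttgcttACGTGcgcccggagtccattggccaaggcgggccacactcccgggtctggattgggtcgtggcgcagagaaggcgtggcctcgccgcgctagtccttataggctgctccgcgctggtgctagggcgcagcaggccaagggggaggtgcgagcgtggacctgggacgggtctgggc
The motifs below were searched on both strands of the 7 member promoters that matched the table: the C/EBP-ATF element core TGATGNAA, the cyclic AMP element TGACGTCA, the E-box CACGTG and the hypoxia element core ACGTG, which lies within the E-box. The hypoxia element core ACGTG began 125 bases before the DDIT4 start, at position -125, and 21.4% of 35116 promoters of the same length hold it. None of the other 6 promoters (SESN1, SESN2, SESN3, EIF4EBP2, TSC1 and TSC2) held any of the 4 motifs. TGATGNAA was present in 3.62% of all promoters, TGACGTCA in 1.85% and CACGTG in 7.26%. A match is a description of letters in this window, and elements outside it were not searched.

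On the length-corrected scale EIF4EBP1 was the most abundant of the 9 in every group, at 111.8 ± 6.13 FPKM with the degrader, 71.6 ± 5.04 with the ligand, 66.5 ± 3.54 with enzalutamide and 68.7 ± 5.56 with vehicle (SD, n = 3 each). In vehicle cells AKT1S1 followed at 45.5 ± 3.88 FPKM, then DDIT4 at 33.9 ± 12.7, EIF4EBP2 at 25.9 ± 1.2, TSC2 at 11.5 ± 0.136, SESN2 at 5.27 ± 0.51, TSC1 at 3.83 ± 0.213, SESN3 at 3.12 ± 0.258 and SESN1 at 3.04 ± 0.0768 FPKM. Libraries of neighbours in this vehicle order overlapped for AKT1S1 and DDIT4, for DDIT4 and EIF4EBP2, and for SESN3 and SESN1, and for no other neighbours. In degrader cells DDIT4 stood second at 51.9 ± 10.2 FPKM, its libraries overlapping those of AKT1S1 at 47.9 ± 1.55, and SESN2 stood above TSC2, at 15.4 ± 1.12 against 12.7 ± 0.543 FPKM, without overlap. SESN2 was below TSC2 without overlap in each of the other groups. In enzalutamide cells DDIT4 came after EIF4EBP1, AKT1S1 and EIF4EBP2, at 18.8 ± 7.2 FPKM, and its libraries overlapped those of EIF4EBP2 at 25.3 ± 1.7.

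**Figure D1:**
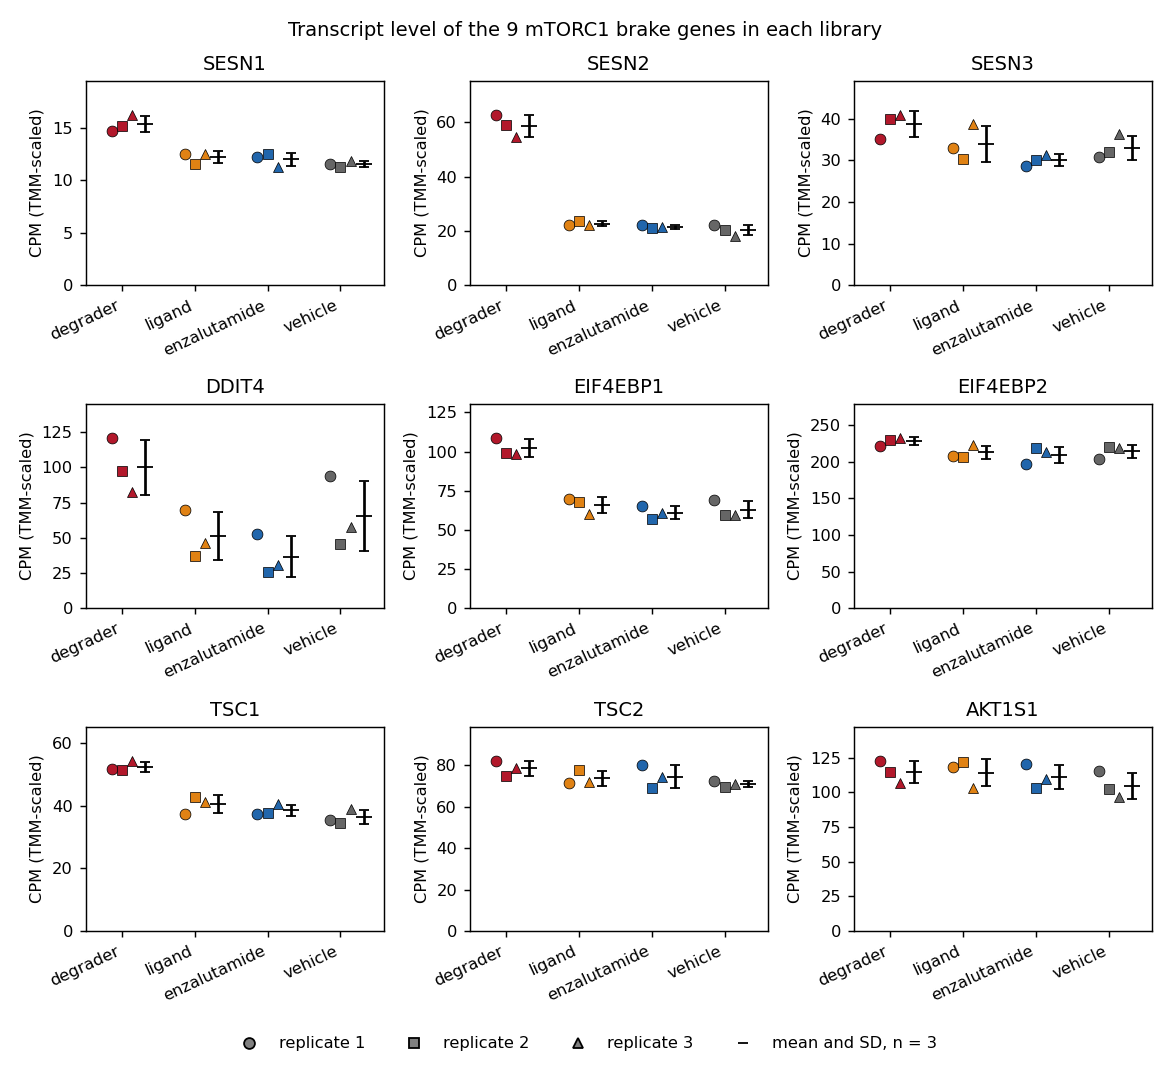
TMM-scaled CPM of each of the 9 genes (vertical axis, from 0) in every library of the degrader, ligand, enzalutamide and vehicle groups. Circles, squares and triangles are replicates 1, 2 and 3, and the bar beside them is the mean and SD (n = 3). The SESN2 libraries of the degrader group sit between 54.6 and 62.7 CPM, above all others, while the DDIT4 libraries spread widely in every group, with replicate 1 highest in each. Replicate 1 is also the highest of each group for EIF4EBP1.

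With the degrader, 4 of the 9 genes were called higher and none lower against vehicle, where 32.7% of all genes tested were called, 16.4% higher and 16.4% lower. The median log2 fold change of the 9 was 0.41, beside 0.01 over all genes tested. Among the sestrins, SESN2, the stress-induced leucine-sensing member, had 62.7, 59.1 and 54.6 CPM in degrader libraries, 22.2, 23.6 and 22.2 in ligand libraries, 22.2, 20.9 and 21.3 in enzalutamide libraries, and 22.1, 20.3 and 18.3 in vehicle libraries. Every degrader library was above every other library. The log2 fold change of SESN2 against vehicle was 1.54 ± 0.07 (SE; adjusted p = 1.19e-10), a 2.91-fold difference that ranked 76th of 17702 genes by size and 21st by p. SESN1, the p53- and FOXO-regulated sestrin, had 14.7, 15.2 and 16.2 CPM in degrader libraries, 12.5, 11.5 and 12.5 in ligand libraries, 12.2, 12.5 and 11.3 in enzalutamide libraries, and 11.5, 11.3 and 11.8 in vehicle libraries. The degrader libraries again stood clear of the rest, by a smaller margin, with a log2 fold change of 0.41 ± 0.07 against vehicle (adjusted p = 2.09e-04).

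SESN3, a FOXO-regulated sestrin, had 35.2, 40 and 40.9 CPM in degrader libraries, 33, 30.3 and 38.7 in ligand libraries, 28.6, 30.1 and 31.4 in enzalutamide libraries, and 30.7, 32 and 36.3 in vehicle libraries. The degrader libraries overlapped those of the ligand and vehicle groups and stood above those of the enzalutamide group. Against vehicle its log2 fold change of 0.23 ± 0.09 had an adjusted p of 0.0513 in edgeR, just outside the threshold. It passed in DESeq2 (adjusted p = 0.0463) and in the authors' deposited table (adjusted p = 0.0426), and in edgeR without vehicle replicate 3 (0.0207), ligand replicate 2 (0.0344), ligand replicate 3 (0.0198) or degrader replicate 1 (0.0225). Summed over the family, sestrin FPKM was 23.2 ± 0.755 with the degrader, 12.2 ± 0.513 with the ligand, 11.3 ± 0.451 with enzalutamide and 11.4 ± 0.252 with vehicle (SD, n = 3 each). SESN2 made up 66.2 ± 2.59% of that sum with the degrader, 48.4 ± 3.25% with the ligand, 49.4 ± 1.82% with enzalutamide and 46.1 ± 3.61% with vehicle. SESN1 and SESN3 thus held smaller shares with the degrader, at 18 ± 1.25% and 15.8 ± 1.71%, than with vehicle, at 26.6 ± 0.964% and 27.3 ± 2.82%, without overlap of the libraries.

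**Figure D2:**
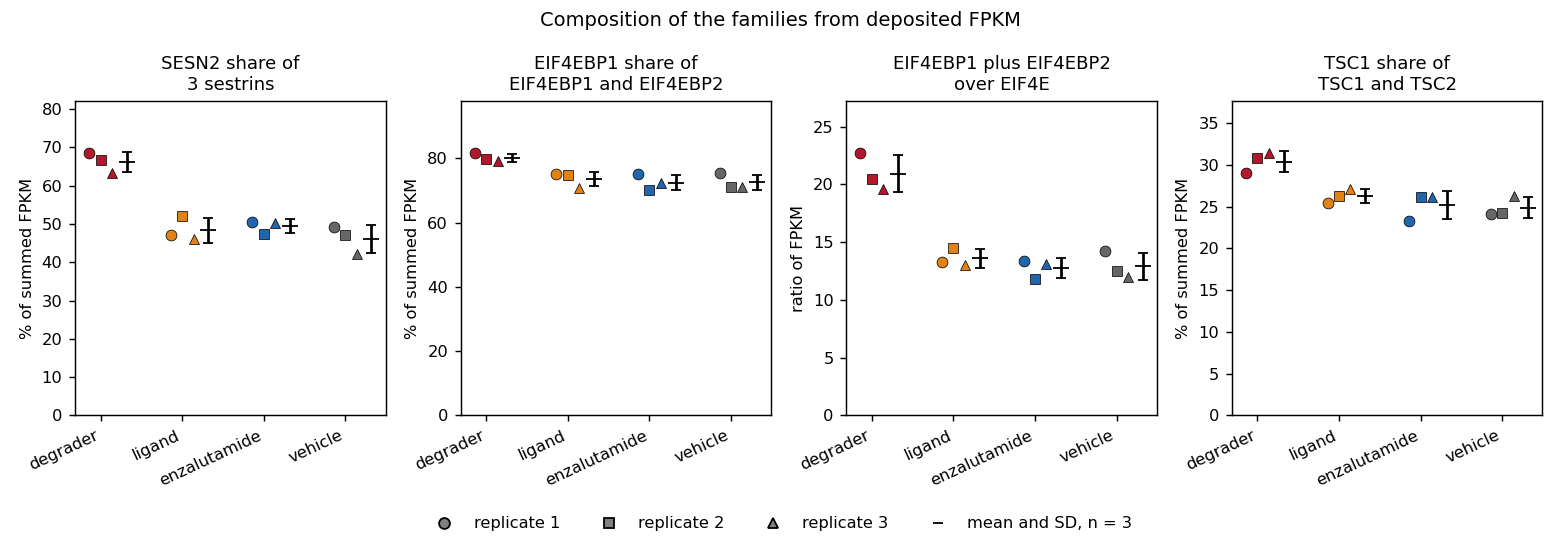
Composition of the gene families from the deposited FPKM in each library: the SESN2 share of the 3 sestrins, the EIF4EBP1 share of EIF4EBP1 and EIF4EBP2, the ratio of these 4E-BPs to EIF4E, and the TSC1 share of TSC1 and TSC2 (all axes from 0). Points are libraries and bars the mean and SD (n = 3). In each panel the 3 degrader libraries lie above every library of the other groups, with SESN2 at 63.4% to 68.5% of the sestrin sum.

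EIF4EBP1, which encodes the translation repressor 4E-BP1, had 108.7, 99.4 and 98.6 CPM in degrader libraries, 69.6, 67.6 and 60.2 in ligand libraries, 65.3, 56.9 and 61 in enzalutamide libraries, and 69, 59.8 and 59.8 in vehicle libraries. No degrader library overlapped any other, and the log2 fold change against vehicle was 0.70 ± 0.07 (SE; adjusted p = 1.45e-06), or 1.63-fold. Its relative EIF4EBP2 averaged 228.2 ± 5.22 CPM with the degrader, 213.2 ± 9.17 with the ligand, 209.9 ± 11 with enzalutamide and 214.5 ± 8.46 with vehicle (SD, n = 3 each). The degrader libraries of EIF4EBP2 lay just above those of vehicle, at 222.5 CPM for the lowest degrader library and 220.1 for the highest vehicle library, and its change of 0.09 was not called (95% confidence interval -0.01 to 0.19, adjusted p = 0.18). EIF4EBP1 made up 80.2 ± 1.23% of the FPKM of both genes with the degrader, 73.6 ± 2.32% with the ligand, 72.5 ± 2.41% with enzalutamide and 72.5 ± 2.4% with vehicle. EIF4E, the cap-binding protein they block, was called lower with the degrader by a log2 fold change of -0.16 ± 0.05 (adjusted p = 0.0263). The FPKM of both 4E-BPs over that of EIF4E was 20.9 ± 1.59 with the degrader, 13.6 ± 0.794 with the ligand, 12.8 ± 0.85 with enzalutamide and 12.9 ± 1.15 with vehicle.

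Of the TSC complex, TSC1, its scaffold subunit, had 51.7, 51.5 and 54.4 CPM in degrader libraries, 37.5, 43 and 41.3 in ligand libraries, 37.4, 37.7 and 40.7 in enzalutamide libraries, and 35.5, 34.7 and 38.9 in vehicle libraries. All degrader libraries were above all others, and the log2 fold change against vehicle was 0.53 ± 0.06 (SE; adjusted p = 6.93e-06). TSC2, the GTPase-activating subunit, had 82.2, 75.1 and 78.7 CPM in degrader libraries and 72.5, 69.8 and 70.9 in vehicle libraries. These did not overlap, yet the log2 fold change of 0.15 (95% confidence interval 0.02 to 0.27) was not called (adjusted p = 0.0626). TSC2 crossed the threshold without enzalutamide replicate 1 (adjusted p = 0.0443), enzalutamide replicate 2 (0.0449) or ligand replicate 2 (0.0489). TSC1 made up 30.4 ± 1.25% of the FPKM of the pair with the degrader, 26.3 ± 0.85% with the ligand, 25.2 ± 1.65% with enzalutamide and 24.9 ± 1.22% with vehicle. AKT1S1, the raptor-binding inhibitor, had 122.7, 114.4 and 107.1 CPM in degrader libraries and 115.2, 102.6 and 96.9 in vehicle libraries, which overlapped, and its change of 0.13 was not called (95% confidence interval -0.03 to 0.29, adjusted p = 0.219). Parts of SESN1, SESN3, TSC2 and AKT1S1 overlap another listed gene in the RefSeq annotation, ARMC2, LOC100129203, PKD1 and TBC1D17 in that order, and whether reads were shared with them was not examined.

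DDIT4, the stress-induced gene that acts through the TSC complex, had 120.9, 97.1 and 82.3 CPM in degrader libraries, 69.9, 37.1 and 46.6 in ligand libraries, 53, 26 and 30.5 in enzalutamide libraries, and 93.7, 45.7 and 57.4 in vehicle libraries. Replicate 1 was the highest library of every group, and the degrader libraries overlapped those of vehicle. The log2 fold change against vehicle, 0.61, was not called (95% confidence interval -0.25 to 1.46, adjusted p = 0.258), an interval that holds both no difference and a size near that of SESN2. It ran between 0.41, without vehicle replicate 2, and 0.96, without vehicle replicate 1, when single libraries were left out, and was called in none of those fits. Between libraries of the same number, the degrader minus vehicle difference in log2 CPM was 0.37, 1.09 and 0.52 for replicates 1, 2 and 3. A list of 9 other hypoxia-inducible genes had its highest mean log2 CPM in replicate 1 of each group as well, at 4.44, 3.95 and 4.09 in degrader libraries, 4.49, 3.81 and 4.18 in ligand libraries, 4.42, 3.82 and 4.01 in enzalutamide libraries, and 4.90, 4.25 and 4.54 in vehicle libraries. This order was not particular to them, since EIF4EBP1 and the luminal marker KRT8 were also highest in replicate 1 of every group. With the replicate number as a block, DDIT4 was called higher with the degrader at 0.67 ± 0.14 (SE; adjusted p = 0.00926). That fit called 41% of all genes in this comparison. Same-numbered degrader and vehicle libraries had correlations of 0.60, 0.02 and 0.40 across genes for replicates 1, 2 and 3. The part of the replicate number in the DDIT4 values was not tested beyond the fits named here. With replicate 1 left out of every group, the DDIT4 change with the degrader was 0.80 on the log2 scale (adjusted p = 0.00424).

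**Figure D3:**
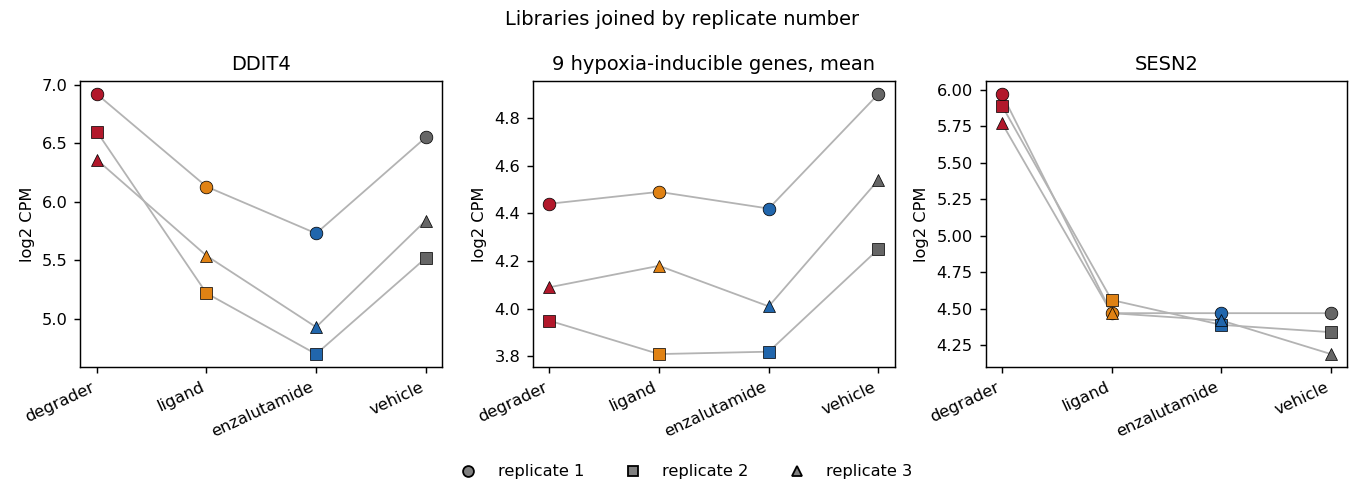
Log2 CPM (vertical axes, log scale, not from 0) of DDIT4, the mean of 9 hypoxia-inducible genes, and SESN2 in each library of the degrader, ligand, enzalutamide and vehicle groups, with grey lines joining libraries of the same replicate number. Replicate 1 (circles) lies highest in every group for DDIT4 and for the hypoxia-inducible genes. SESN2 lies between 5.77 and 5.97 in degrader libraries and at or under 4.56 in all others.

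With the ligand, none of the 9 genes was called against the same vehicle libraries, where 0.237% of all genes tested were called, 0.203% higher and 0.0339% lower. DESeq2 and limma-voom also called none. At an unadjusted p under 0.05 there were 2, SESN2 at 0.16 on the log2 scale (95% confidence interval 0.01 to 0.31, adjusted p = 0.631) and TSC1 with 0.16 (0.03 to 0.29, adjusted p = 0.576). DDIT4 was at -0.36 (95% confidence interval -1.22 to 0.51, adjusted p = 0.914), with ligand minus vehicle differences of -0.42, -0.30 and -0.30 in replicates 1, 2 and 3. Leaving out single libraries moved its fitted difference between -0.65, without ligand replicate 1, and -0.01, without vehicle replicate 1. For EIF4EBP1 the interval was -0.09 to 0.22 around 0.07, and for SESN1 it was -0.07 to 0.22 around 0.08. The median of the 9 was 0.07, beside 0 over all genes tested.

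With enzalutamide, none of the 9 was called against vehicle, where 1.44% of all genes tested were called, 0.35% higher and 1.09% lower. None had an unadjusted p under 0.05, and DESeq2 and limma-voom called none. SESN2 differed from vehicle by 0.09 (95% confidence interval -0.06 to 0.24), EIF4EBP1 by -0.04 (-0.19 to 0.11) and TSC1 by 0.09 (-0.05 to 0.22) on the log2 scale. For DDIT4 the difference was -0.85 (95% confidence interval -1.73 to 0.03, adjusted p = 0.516), and its enzalutamide libraries overlapped those of vehicle. It ran between -1.21, without enzalutamide replicate 1, and -0.50, without vehicle replicate 1, and was called in none of the fits that left out 1 library. The enzalutamide minus vehicle differences were nevertheless alike across numbers, at -0.82, -0.81 and -0.91 in replicates 1, 2 and 3. Libraries of these groups with the same number deviated together, with correlations of 0.59, 0.29 and 0.33 across genes. The paired fit had the replicate number as a block and all 12 libraries. In it DDIT4 was called lower at -0.85 ± 0.15 (adjusted p = 0.0332). That fit called 3.12% of all genes, and no other member.

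**Figure D4:**
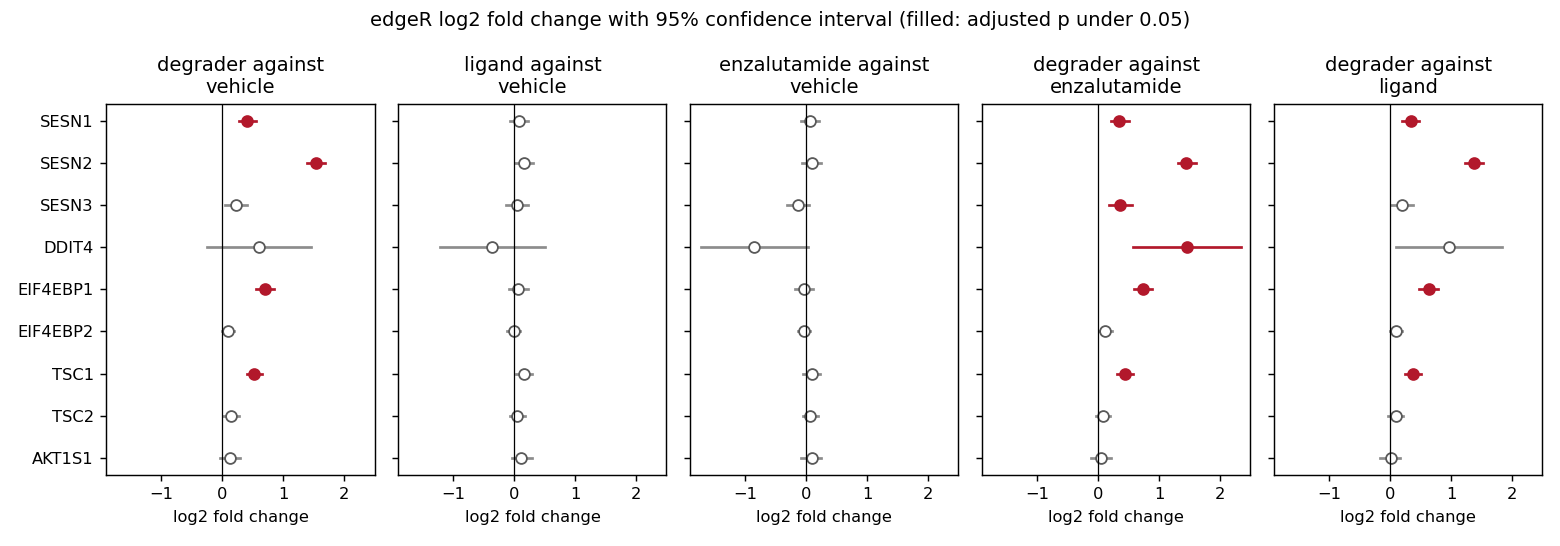
Log2 fold change (horizontal axis) of the 9 genes in the 5 pairwise comparisons, with 95% confidence intervals from edgeR. Filled red points passed at an adjusted p under 0.05 and open points did not. SESN2, EIF4EBP1, TSC1 and SESN1 are filled in all 3 panels that have the degrader on top, SESN3 and DDIT4 against enzalutamide alone, and the DDIT4 intervals are the widest.

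Set against enzalutamide, the degrader group had 6 of the 9 genes higher and none lower, where 32.3% of all genes tested were called, 16.3% higher and 16.1% lower. DDIT4 and SESN3 joined the 4 called against vehicle. DDIT4 was higher by 1.46 ± 0.38 on the log2 scale (adjusted p = 0.0199), with no overlap of libraries and differences of 1.19, 1.90 and 1.43 between libraries of the same number. The DDIT4 call was lost without enzalutamide replicate 2 (adjusted p = 0.0657), enzalutamide replicate 3 (0.0673) or degrader replicate 1 (0.0586), while the change stayed at 1.26 or more. SESN3 was higher by 0.36 ± 0.09 (adjusted p = 0.00402), and SESN2, EIF4EBP1, TSC1 and SESN1 by 1.45, 0.74, 0.44 and 0.35 on the log2 scale.

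Set against the ligand, the degrader group had 4 of the 9 higher and none lower, where 28.5% of all genes tested were called, 14.3% higher and 14.2% lower. The log2 fold changes were 1.38 ± 0.07 for SESN2 (adjusted p = 8.40e-10), 0.64 ± 0.07 for EIF4EBP1 (6.34e-06), 0.37 ± 0.06 for TSC1 (3.03e-04) and 0.34 ± 0.07 for SESN1 (0.00154). DDIT4 was 0.97 higher (95% confidence interval 0.10 to 1.83) without overlap of libraries and was not called in edgeR (adjusted p = 0.0936), whereas DESeq2 (0.0480) and limma-voom (0.0108) called it. SESN3 was not called at 0.19 (adjusted p = 0.117), though it was without ligand replicate 3 (0.29, adjusted p = 0.0128).

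Whether the degrader differed from the enzalutamide and ligand differences added together was tested as 1 contrast on the log2 scale. It was larger for 3 of the 9 genes, where 15.2% of all genes tested were called, 7.61% in each direction. SESN2 exceeded the sum by 1.29 ± 0.10 (adjusted p = 5.56e-07), EIF4EBP1 by 0.68 (2.95e-04) and TSC1 by 0.29 ± 0.09 (0.0384). The TSC1 call was lost without vehicle replicate 3 (0.23, adjusted p = 0.108), enzalutamide replicate 1 (0.26, 0.101) or 2 (0.26, 0.0899), ligand replicate 1 (0.23, 0.100), or degrader replicate 2 (0.30, 0.0686) or 3 (0.25, 0.101). DDIT4 exceeded the sum by 1.82, with a 95% confidence interval of 0.59 to 3.05 and an adjusted p of 0.0565 in edgeR. It was called in DESeq2 (1.80, adjusted p = 0.00963) and limma-voom (1.87, 0.00516), and in edgeR without enzalutamide replicate 1 (2.18, adjusted p = 0.0368) or ligand replicate 1 (2.11, 0.0478). SESN3 exceeded the sum by 0.32 without a call (adjusted p = 0.0874), and was called without ligand replicate 3 (0.42, adjusted p = 0.0117) or degrader replicate 1 (0.39, 0.0438).

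The rest of the pathway was counted over lists of genes of known role, beside the 32.7% of all genes called with the degrader against vehicle, 16.4% in each direction. Of 21 other mTORC1 brakes, 4 were higher and 2 lower, a share no larger than that of all genes, with a median log2 fold change of 0.05. Among those with the smallest p were DDIT4L (REDD2), a paralog of DDIT4, at 0.56 ± 0.05 (adjusted p = 5.39e-07), KPTN, a subunit of the KICSTOR scaffold, at -0.45, and the AMPK subunit PRKAB1 at 0.23. DDIT4L averaged 78.7 ± 2.3 FPKM with the degrader, 56.7 ± 4.63 with the ligand, 54 ± 2.97 with enzalutamide and 53.3 ± 1.59 with vehicle, so its libraries spread far less than those of DDIT4. The third 4E-BP gene, EIF4EBP3, was also called, at 0.37 ± 0.14 (adjusted p = 0.0489), near the threshold. GATOR2, the complex that sestrins bind, had 1 of 5 subunits higher, WDR59 at 0.13, and 1 lower, SEH1L at -0.16. Among 14 genes of mTORC1 itself, the Rag GTPases and their anchors, 4 were higher and 1 lower, a share close to that of all genes, led by the Rag genes RRAGD at 0.65 ± 0.06 (adjusted p = 3.34e-07) and RRAGC at 0.53, the anchor gene LAMTOR3 at 0.27 and the kinase gene MTOR at -0.17.

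Downstream of mTORC1, 2 of 10 genes were higher and 4 lower with the degrader, where 16.4% of all genes were called in each direction, and the median of the list was -0.07. EIF4A1 and EIF4G1, helicase and scaffold of the cap-binding complex, were at -0.32 and -0.20, the S6 kinase gene RPS6KB2 at -0.23, and the helicase cofactor gene EIF4B at 0.21 on the log2 scale. On the insulin and AKT arm upstream of TSC2, 4 of 9 were higher and 2 lower beside the same share of all genes, with a median of 0.11, among them AKT1 at -0.24, AKT2 at 0.17, GSK3B at 0.22 and IRS2, an insulin receptor adaptor, at 0.20. With enzalutamide the only gene called in these mTORC1 and insulin lists was the growth factor receptor gene IGF1R, at -0.50 ± 0.06 (adjusted p = 1.12e-04), and with the ligand none was called.

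**Figure D5:**
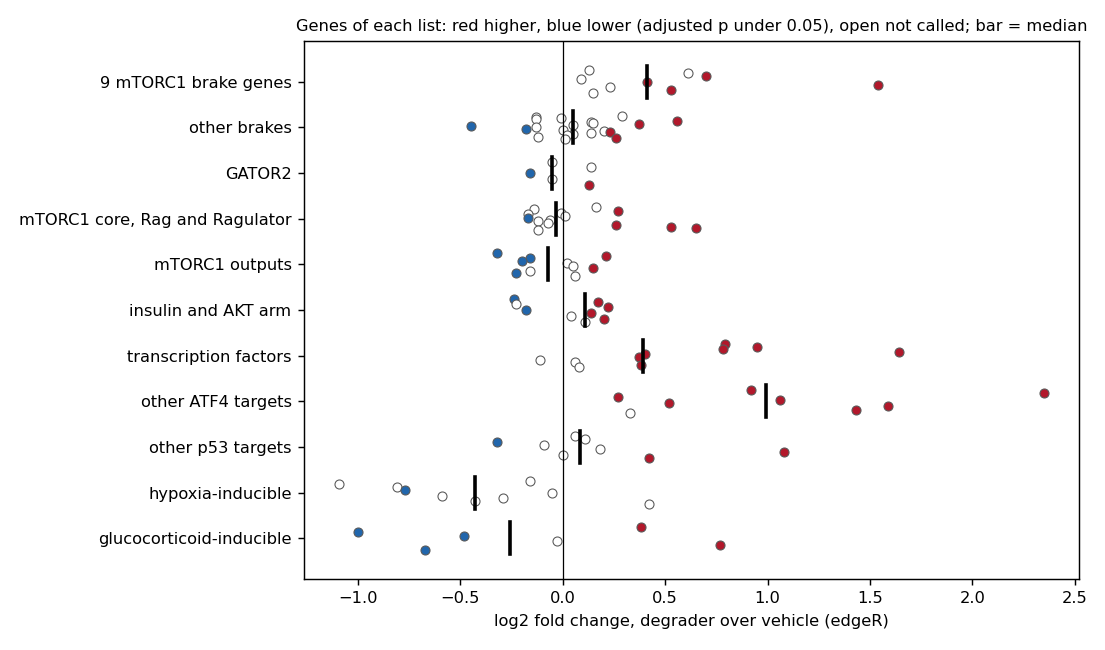
Log2 fold change, degrader over vehicle (horizontal axis), of every gene tested in each list. Red points were called higher and blue points lower at an adjusted p under 0.05, open points were not called, and the black bar is the list's median. The 9 brake genes have a median of 0.41, the other ATF4 targets 0.99 and the hypoxia-inducible genes -0.43.

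Genes of the factors known to act on the members moved with the degrader too. Of 10 such transcription factor genes, 7 were higher and none lower, where 16.4% of all genes tested were called higher and 16.4% lower, with a median log2 fold change of 0.39 beside 0.01 over all genes. The stress factor gene ATF4 was at 0.79 ± 0.05 (adjusted p = 9.78e-09), its partners CEBPG and CEBPB at 0.78 and 0.95, and DDIT3, which encodes CHOP, at 1.64 ± 0.07 (adjusted p = 2.52e-11). Of 8 further ATF4 targets outside the 9 genes, 7 were higher and none lower, including the pseudokinase gene TRIB3 at 1.43, the asparagine synthetase gene ASNS at 0.92, the glutathione-degrading enzyme gene CHAC1 at 2.35 and the serine synthesis gene PSAT1 at 0.52. Of 8 p53 targets outside the 9 genes, 2 were higher and 1 lower (median 0.09), a share close to the 32.7% of all genes called in either direction. The higher ones were ZMAT3 at 0.42 and a gene at 1.08 (adjusted p = 4.89e-08), the largest change of the list, and the lower one was DDB2 at -0.32.

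Lists of genes that respond to hypoxia and to glucocorticoids, both known to raise DDIT4, had negative medians with the degrader. Of 9 hypoxia-inducible genes, none was higher and 1 lower with the degrader, where 16.4% of all genes were called in each direction. The gene called was EGLN3 at -0.77 ± 0.25 (adjusted p = 0.0258), and the median of the 9 was -0.43 against vehicle with the degrader, -0.37 with the ligand and -0.43 with enzalutamide. In the paired fit of all 12 libraries, 5 of the 9 hypoxia-inducible genes were called lower with enzalutamide, where the unpaired fit called none. That fit called 399 of all 17702 genes lower with enzalutamide. Among the 5 were VEGFA at -0.36 (adjusted p = 5.15e-04) and PDK1 at -0.47 (0.00452). The hypoxia factor gene HIF1A was also called lower, at -0.24 (3.50e-04). With the degrader the paired fit called 6 of the 9 lower and 1 higher, VEGFA at 0.43 (adjusted p = 3.95e-06), where 41% of all genes were called. In the unpaired fit DDIT4 itself was at 0.61 with the degrader, -0.36 with the ligand and -0.85 with enzalutamide, comparisons that share their vehicle libraries. Of 6 glucocorticoid-inducible genes, 2 were higher and 3 lower with the degrader (median -0.25), FKBP5 at -1, ZBTB16 at -0.67, TSC22D3 at 0.77 and KLF9 at -0.48. With enzalutamide 4 of the 6 were lower and none higher, where 1.09% of all genes were called lower, led by FKBP5 at -1.25 ± 0.05 (adjusted p = 7.18e-11) and ZBTB16 at -0.81, and BTG2 was the 1 gene of the p53 list called, at 0.62.

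Across the 12 libraries, the genes with the pattern most like each of the 3 members whose group means varied most were found by the root mean square difference of log2 CPM, each gene set to its own vehicle mean, over 11738 genes with a mean of at least 5 CPM. For SESN2 these were TRIB3 (0.0731), BEX2 (0.0911) and GRB10 (0.122), where the median over all genes was 0.788. Their degrader over vehicle log2 fold changes were 1.43, 1.55 and 1.37. For EIF4EBP1 they were NFE2L1 (0.0613), PBXIP1 (0.0666) and ORAI2 (0.0693), where the median was 0.378. For DDIT4 they were BHLHE41 (0.341), VEGFA (0.341) and FYN (0.380), beside a median of 0.691, so no gene followed DDIT4 as closely as TRIB3 followed SESN2. VEGFA, a hypoxia-inducible gene of the list above, was at 0.42 with the degrader (adjusted p = 0.114), -0.23 with the ligand and -0.37 with enzalutamide. The libraries of a group share their treatment and all 12 share their scaling, and the likeness is a description without a test.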

How the data were processed

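Poly(A) RNA from 12 libraries, 4 groups of 3, was analysed from a table the authors deposited. Per the submitters' processing notes, HISAT2 and StringTie were used with GRCh37, and versions, counting settings and the strand setting are not given in the sources used here. Per the file headers, the table the authors deposited holds a read count per gene and library, an FPKM value scaled to length and depth, and, for each compound against vehicle, a score that is a signed linear fold change and an adjusted p-value from a test that is not named. Its 24 per-sample columns of other normalised values were not used, and the smallest count of any gene in any library is 1, so genes at 0 in some library are not rows of it.

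Counts were filtered with filterByExpr (minimum count 10, minimum total count 15), which left out 966 genes, scaled by TMM (factors 0.987 to 1.02) and fitted in edgeR 4.0.16 (R 4.3.3, limma 3.58.1) with a robust quasi-likelihood model of all 12 libraries and group as the term, with 8 residual degrees of freedom. Log2 CPM used a prior count of 2. Adjusted p-values are Benjamini-Hochberg values over all genes tested. Between replicates of a group, chi-square over its degrees of freedom, taken over genes together, was 5.56 to 22.8, above sampling noise alone. Spread between libraries thus exceeded counting error over the genes as a set, which may differ for single genes. The p-values set each group difference against a spread estimated over all 12 libraries.

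Same-numbered libraries were checked for pairing by the correlation of their deviations from the group means over 11739 genes. It was over 0.1 for all 3 numbers between enzalutamide and vehicle alone. For replicates 1 and 3 it was 0.25 or more in every pair of groups, and between degrader and vehicle it was 0.60, 0.02 and 0.40. The labels give a number and do not say what it marks. Blocked values, from a fit of all 12 libraries, are therefore given beside some unpaired ones and as an alternative.

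The 9 genes and all gene lists were chosen with earlier results of these data known. Named genes were the 9, up to 4 called genes of smallest p per list with the degrader and up to 2 with each other compound, apart from 2 genes that are not named here, and the 3 nearest patterns. Promoters and overlaps came from RefSeq on GRCh38.p14, used for sequence and names and not joined to the counts by position. DESeq2 1.42.0, limma-voom, other normalisations (RLE, upper quartile), no filter, the compared groups alone, the replicate block and leaving out libraries were tried as alternatives.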

Additional observations from a re-analysis of the deposited data

How the results depend on the processing

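The calls of SESN1, SESN2, EIF4EBP1 and TSC1 against vehicle, enzalutamide and ligand stayed past the threshold in the same direction under every alternative run. With 3 libraries a group, the differences of SESN3 and TSC2 from vehicle with the degrader sit near the threshold, and DDIT4, the noisiest, is limited by spread between libraries and not by depth. RLE and upper-quartile scaling moved the median of all genes by at most 0.01 on the log2 scale.

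With the replicate block, the paired fit, 8 members were called higher for degrader against vehicle (4 without the block). Of the 17702 genes tested, it called 41% in this comparison, 3659 of them higher. For degrader against ligand 7 members were called higher (4), where 37.1% of all genes were called. Beyond the sum 6 were called higher (3), where 25.2% of all genes were called. DDIT4 was among them each time, at 0.67, 1.01 and 1.86 (adjusted p = 0.00926, 0.00153 and 8.34e-04). With enzalutamide 1 member, DDIT4, was called lower (0 without the block), where 3.12% of all genes were called. DDIT4 was also called lower without replicate 1 of every group, and in the enzalutamide and vehicle libraries alone with the block. The last of these fits was added after seeing the data. Of the 9 hypoxia-inducible genes, the block called 6 lower with the degrader and 1 higher, VEGFA at 0.43 (adjusted p = 3.95e-06), where 41% of all genes were called, against 1 lower and none higher without it. Between groups other than enzalutamide and vehicle, same-numbered libraries had correlations of 0.28 to 0.60 for replicate 1 and 0.25 to 0.59 for replicate 3. For replicate 2 these ran from -0.27 to 0.08. The correlation of same-numbered libraries was -0.27 to 0.60 over all 18 pairs, and 9 of 12 libraries correlated best with their own number. All genes called higher with the ligand, 36, became 98 in DESeq2, 21 with the compared groups alone, 125 with the block and 22 without replicate 1 of every group. Those called lower, 6, became 23 in DESeq2, 66 with the block and 1 without replicate 1. With enzalutamide, 62 called higher became 117 in DESeq2, 154 with the block, 572 in the enzalutamide and vehicle libraries alone with the block and 21 without replicate 1, and 193 called lower became 399, 911 and 115 in the last 3 of these. Without replicate 1 of every group, degrader against ligand had 1656 higher (2535 with it). Beyond the sum, 1347 higher and 1347 lower became 2234 and 2229 with the block, and 723 and 632 without replicate 1. The cause of these moves was not tested.

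Leaving out single libraries in turn gave 19 to 70 genes higher and 2 to 7 lower with the ligand and 32 to 76 higher with enzalutamide. Signs that turned belonged to uncalled members near 0. AKT1S1, degrader against ligand, main value 0.01, was 0 with RLE, 0 in DESeq2, 0 without a filter and -0.02 without replicate 1, and -0.07 to 0.05 without single libraries. Without single libraries the ranges were -0.06 to 0.12 for SESN3 and -0.04 to 0.02 for EIF4EBP2 with the ligand, -0.09 to 0.03 for EIF4EBP1 and -0.06 to 0.01 for EIF4EBP2 with enzalutamide, -0.01 to 0.11 for AKT1S1 against enzalutamide, and -0.03 to 0.07 for TSC2 beyond the sum. Without replicate 1 of every group TSC1 beyond the sum was 0.23 (adjusted p = 0.198), and DDIT4 was -0.86 with enzalutamide (0.0409), 1.10 against ligand (0.00115) and 1.97 beyond the sum (0.00106). SESN3 and TSC2 against vehicle crossed the threshold with upper-quartile scaling (adjusted p = 0.0453 and 0.0496) and with the compared groups alone (0.0384 and 0.0319).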
